A study of Mus musculus with 10 samples.

Results

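The Hedgehog pathway genes described here are 7 genes, Gli1, Gli2, Gli3, Ptch1, Smo, Sufu and Hhip, in mouse embryonic stem cells (ESCs) depleted of Wapal or of Smc3. They were taken as all probe sets (groups of short probes that read 1 transcript) whose single gene symbol in the platform annotation was 1 of these names. That gave 19 of 45037 probe sets and 7 of 18193 named genes. They were chosen on measured values of these arrays, the lower Gli1 and Gli2 after Wapal depletion. Values of any member that compare Wapal arrays with Empty Vector or with Smc3 arrays are therefore given as a description, with no test. Each gene is represented by its brightest probe set, the one with the highest mean over the 10 arrays.

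Hedgehog ligands are secreted proteins that bind the membrane receptor Patched1 (Ptch1). Unbound Patched1 holds the membrane protein Smoothened (Smo) inactive, and ligand binding releases Smoothened, which acts at the primary cilium to keep the GLI transcription factors from being processed into repressors. Ptch1, Gli1 and Hhip are themselves transcribed in response to GLI activity in many tissues, so that their RNA is widely used as a readout of the pathway.

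The ESCs were of the line CJ9, derived from the strain 129svj. They were infected with lentivirus for 48 h with polybrene at 10 µg/mL, then selected in puromycin (4 µg/mL) with LIF present, and grown for 48 h after infection. The virus carried Wapal shRNA1, Wapal shRNA2, Smc3 shRNA1, Smc3 shRNA2 or, in Empty Vector cells, the pLKO.1 backbone with no hairpin. Every group had 2 arrays (Affymetrix mouse genome expression arrays), 10 in all, and all groups shared the virus, the drug and the time point, and nothing in the labels says that clones were picked. Smc3 is a core subunit of the cohesin ring, and Wapal (symbol Wapl on the array) is the factor that releases cohesin from chromatin.

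Knockdown was unequal for Wapal. Wapl read 929 and 1005 under Wapal shRNA1, then 235 and 217 under Wapal shRNA2, against 2500 and 2648 in Empty Vector cells. Smc3 itself read 187 and 176 under Smc3 shRNA1, then 223 and 189 under Smc3 shRNA2, against 1536 and 1555 in Empty Vector cells. The median intensity of an array lay between 38.6 and 39.7. In the data, 1 Empty Vector array resembled the arrays of Wapal shRNA1 and Smc3 shRNA2 and the other those of Wapal shRNA2 and Smc3 shRNA1, a split that no label names (across probe sets, the difference between hairpins correlated with Empty Vector 2 minus Empty Vector 1 at r = 0.40 for Wapal shRNA2 minus shRNA1 and 0.31 for Smc3 shRNA1 minus shRNA2). Each shRNA is therefore also set against the Empty Vector array on its own side of that split. Within a depletion each hairpin lay wholly on 1 side, so hairpin and side cannot be told apart. All 10 ESC markers listed were above the level called dim (a mean log2 intensity under 6 in every group), while 8 of 10 fibroblast markers were dim. The summed fibroblast markers lay at 267 to 296 with Wapal shRNA1, 317 to 318 with Wapal shRNA2, 375 to 378 with Smc3 shRNA1, 288 to 293 with Smc3 shRNA2 and 344 to 393 with Empty Vector, with Col1a1 at 17.0 to 22.4 on every array.

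Sequence near the transcription start was taken from RefSeq (GRCm38.p6) for the 6 members that matched an entry. The 250 bases before each start were searched on both strands for the GLI binding motif GACCACCCA and for its inner letters CCACCC, which that motif contains. The windows of Gli2, Ptch1 and Hhip overlapped the RefSeq span of their own gene, so they are not upstream of the whole gene. The full motif was in none of the 6 windows, with or without 1 mismatch, and in 0.225% of 32851 promoter windows of the same length (5.79% with up to 1 mismatch). The inner letters were in the windows of Gli2 (2 matches), Gli3, Smo and Hhip (1 each), not in those of Ptch1 and Sufu, and in 28.1% of all windows. The stretches that hold these letters, in capitals on either strand, are shown because they hold the part of the GLI motif that was found in these windows. A match is a description of letters and not a site.
Gli2, chr1:119053801-119053830, minus strand: cctccaGGGTGGtgtccccCCACCCccagc
Gli3, chr13:15463541-15463570, plus strand: gggacggggcggGGGTGGgggcgcgcgagg
Smo, chr6:29735323-29735352, plus strand: tcccgaatacccCCACCCcagccccttcgg
Hhip, chr8:80058149-80058178, minus strand: cgcagccggaggCCACCCtgggccccggcg
The window of Sufu, whose brightest probe set was lower on all Wapal arrays, is shown whole as one that holds none of these letters.
Sufu, chr19:46396646-46396895, plus strand: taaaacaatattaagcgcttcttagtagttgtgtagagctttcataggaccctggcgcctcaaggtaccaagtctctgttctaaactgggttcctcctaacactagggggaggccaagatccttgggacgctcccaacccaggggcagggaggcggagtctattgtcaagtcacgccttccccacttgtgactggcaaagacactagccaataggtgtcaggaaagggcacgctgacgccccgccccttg

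Of the 19 probe sets, 10 were dim and 9 were not. Gli1, Gli2, Gli3, Ptch1, Smo and Sufu each had a brightest probe set above that level in at least 1 group, and Hhip had none. Intensities are the deposited RMA values, in arbitrary units of brightness, and differences are on the log2 scale with their standard error (SE). In the plot of the 7 brightest probe sets, Gli1 and Ptch1 spanned the widest range across groups, Gli2 was highest in Empty Vector, and Sufu was lowest on the Wapal arrays.

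**Figure D1:**
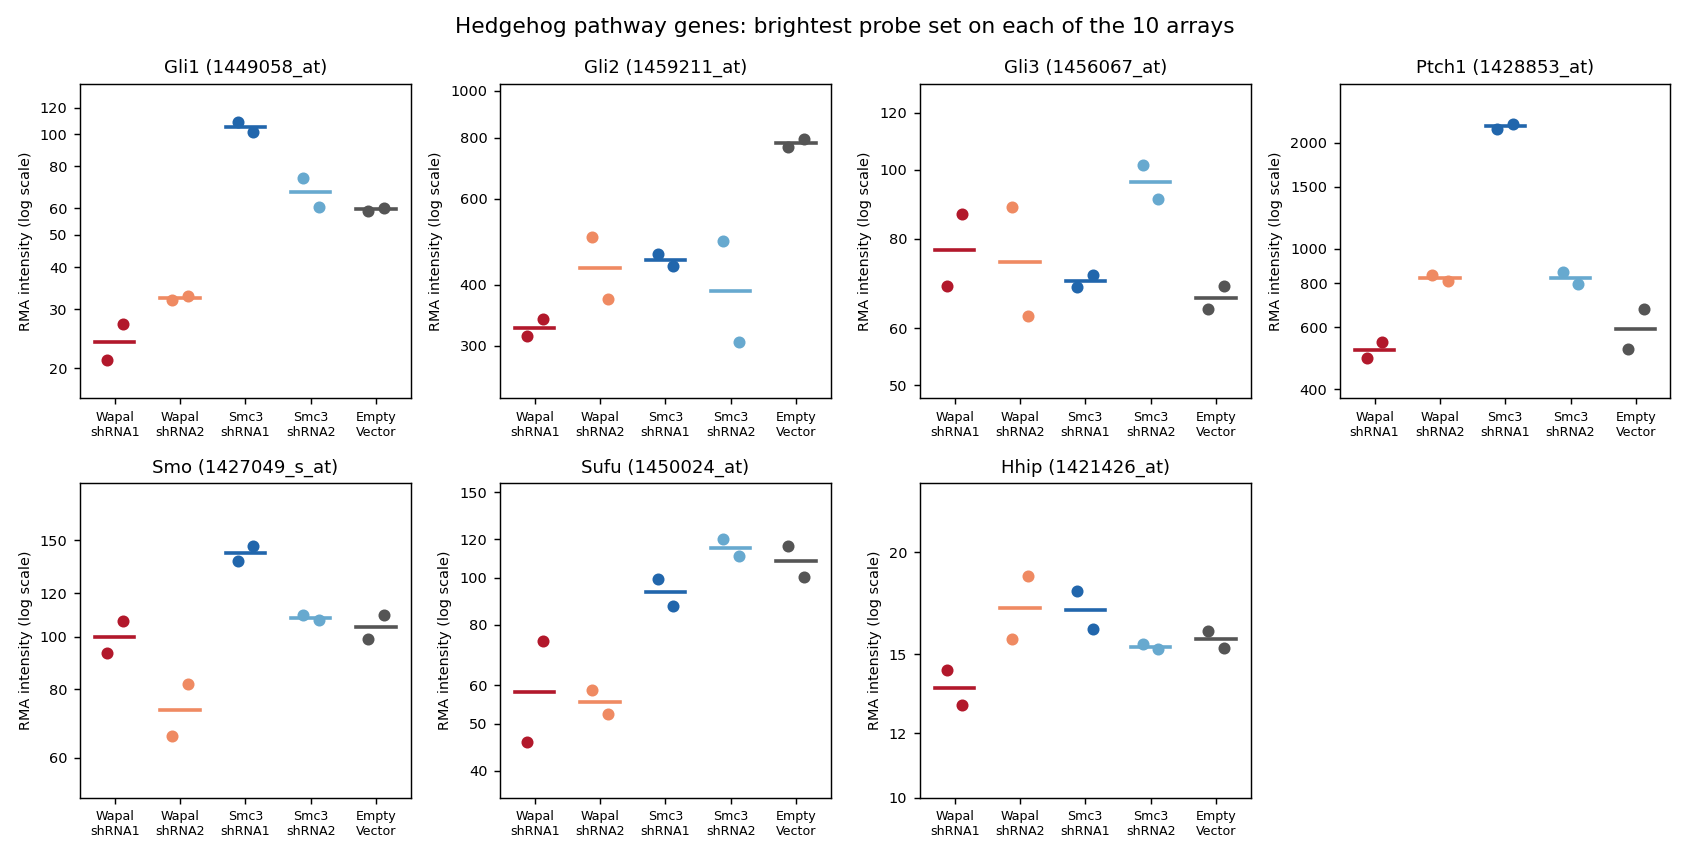
RMA intensity (log scale) of the brightest probe set of each of the 7 Hedgehog pathway genes on the 10 arrays, by group; each point is 1 array and each bar the geometric mean of the 2 arrays of a group. Gli1 was between 21.2 and 32.8 on the 4 Wapal arrays and at 59.1 and 60.1 with Empty Vector, and Ptch1 was at 2189 and 2261 with Smc3 shRNA1.

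Gli1, an activator whose own transcription is a direct output of the pathway, was low with both Wapal shRNAs and high with 1 of the Smc3 shRNAs. Its only probe set (1449058_at) read 21.2 and 27.0 with Wapal shRNA1, 31.99 and 32.8 with Wapal shRNA2, 109 and 102 with Smc3 shRNA1, 74.1 and 60.7 with Smc3 shRNA2, and 59.1 and 60.1 with Empty Vector. The 4 Wapal arrays lay below, and the 4 Smc3 arrays above, both Empty Vector arrays, although the lower Smc3 shRNA2 array differed from the higher Empty Vector array by less than the spread between the Smc3 shRNA2 arrays. Wapal depletion minus Empty Vector was -1.10 ± 0.12, which is 2.14-fold lower. On the log2 scale these groups averaged 4.58 (Wapal shRNA1), 5.02 (Wapal shRNA2) and 5.90 (Empty Vector). These means lay under the log2 level of 6 used for dim, and only the Smc3 groups lay above it. The cells with more Wapl left had the lower Gli1, at -1.32 ± 0.13 with Wapal shRNA1 and -0.88 ± 0.13 with Wapal shRNA2 against Empty Vector. That difference between hairpins, -0.44 ± 0.13, did not pass the test (adjusted p = 0.161, limma).

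Against Empty Vector, Gli1 was 0.49 ± 0.11 higher in Smc3 depletion, 1.41-fold (adjusted p = 0.0283, limma with Benjamini-Hochberg adjustment over all 45037 probe sets). This call was lost in 5 of the 6 fits that left out 1 array, where adjusted p lay between 0.0375 and 0.109, and in the fit with the side of the array split as a term (adjusted p = 0.102). That last fit held 1 mean for both Smc3 hairpins, so their difference beyond that of the side counted there as spread. Most of the rise came with 1 hairpin. Against Empty Vector it was 0.82 ± 0.12 with Smc3 shRNA1 (adjusted p = 0.0061, limma). With Smc3 shRNA2 it was 0.17 ± 0.12 and did not pass (adjusted p = 0.490, limma). Smc3 shRNA1 exceeded Smc3 shRNA2 by 0.65 ± 0.12 (adjusted p = 0.0150, limma), and on the matching side of the split the differences from Empty Vector were 0.81 with Smc3 shRNA1 and 0.18 with Smc3 shRNA2.

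Gli2, which carries both activator and repressor functions and is a main transducer of the signal, was lower in both depletions. Its brightest probe set (1459211_at) read 313 and 341 with Wapal shRNA1, 501 and 374 with Wapal shRNA2, 463 and 437 with Smc3 shRNA1, 493 and 305 with Smc3 shRNA2, and 765 and 795 with Empty Vector. Every depleted array lay below both Empty Vector arrays. Smc3 shRNA2 overlapped each other depleted group, while both Wapal shRNA1 arrays lay below Wapal shRNA2 and Smc3 shRNA1. On the second probe set (1446086_s_at) the 8 depleted arrays, at 104 to 141, also lay below the Empty Vector arrays, at 226 and 215. Wapal depletion minus Empty Vector was -1.05 ± 0.13 for the brighter and -0.85 ± 0.11 for the dimmer probe set.

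In Smc3 depletion Gli2 was lower by -0.90 ± 0.17 (adjusted p = 0.0167, limma) and, on the second probe set, by -0.84 ± 0.11 (adjusted p = 0.00425, limma). The same 2 Empty Vector arrays are the baseline of the Wapal and the Smc3 values, so the 2 falls are not independent of each other. Gli2 was chosen for its fall against these same arrays, and that choice favours high Empty Vector values. The adjusted p-values of Gli2 in Smc3 depletion are therefore not free of the choice. For the brighter probe set adjusted p was 0.0587 without Empty Vector replicate 1 and 0.0569 without Smc3 shRNA1 replicate 2. Within sides of the array split the differences were -1.23 with Wapal shRNA1, -0.88 with Wapal shRNA2, -0.82 with Smc3 shRNA1 and -0.98 with Smc3 shRNA2, while Empty Vector 2 minus Empty Vector 1 was 0.05. Neither pair of hairpins differed past the threshold (-0.40 ± 0.15 between Wapal hairpins, adjusted p = 0.224, and 0.21 ± 0.20 between Smc3 hairpins, adjusted p = 0.569, limma). Wapal minus Smc3 depletion, which uses no Empty Vector array, was -0.15 ± 0.14.

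Gli3, the GLI protein that acts mainly as a repressor when no ligand is present, showed small differences outside Smc3 shRNA2. The brightest probe set (1456067_at) read 68.8 and 86.8 with Wapal shRNA1, 88.6 and 62.3 with Wapal shRNA2, 68.5 and 71.2 with Smc3 shRNA1, 101 and 91.1 with Smc3 shRNA2, and 63.8 and 68.8 with Empty Vector. The Smc3 shRNA2 arrays were the 2 highest, and the other 4 groups overlapped or met at their ends. Smc3 depletion minus Empty Vector was 0.31 ± 0.10 and did not pass (adjusted p = 0.0967, limma), although it passed when dim probe sets were left out (adjusted p = 0.03955). Smc3 shRNA2 alone was 0.54 ± 0.11 above Empty Vector (adjusted p = 0.0229, limma). Smc3 shRNA1 was 0.46 ± 0.11 below Smc3 shRNA2 (-0.46, adjusted p = 0.0347, limma), a call that was lost when any 1 of the 4 Smc3 arrays was left out. The second probe set (1455154_at) read 46.3 to 67.9 over the 10 arrays and the third was dim at 13.9 to 19.5.

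Ptch1, the ligand receptor and a transcriptional target of GLI proteins, was far higher with Smc3 shRNA1 than in any other group. Its brightest probe set (1428853_at) read 491 and 544 with Wapal shRNA1, 841 and 811 with Wapal shRNA2, 2189 and 2261 with Smc3 shRNA1, 858 and 793 with Smc3 shRNA2, and 521 and 675 with Empty Vector. Wapal shRNA2 and Smc3 shRNA2 overlapped each other and lay above both Empty Vector arrays, whereas Wapal shRNA1 overlapped Empty Vector.

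Ptch1 was 1.19 ± 0.12 higher in Smc3 depletion than with Empty Vector, 2.28-fold (adjusted p = 0.00125, limma), and 1.43 ± 0.14 higher with Smc3 shRNA1 than with Smc3 shRNA2 (adjusted p = 0.00139, limma). By hairpin, the rise over Empty Vector was 1.91 ± 0.14 with Smc3 shRNA1 (adjusted p = 0.000303, limma). With Smc3 shRNA2 it was 0.48 ± 0.14 and did not pass (adjusted p = 0.0769, limma). On the matching side of the split the differences from Empty Vector were 1.72 with Smc3 shRNA1 and 0.66 with Smc3 shRNA2, beside 0.37 between the 2 Empty Vector arrays. Smc3 RNA itself did not separate these hairpins, at -3.09 ± 0.12 with Smc3 shRNA1 and -2.91 ± 0.12 with Smc3 shRNA2. The other Ptch1 probe sets were dim. The second (1450824_at) read 32.8 to 49.6 over the 10 arrays, with 0.16 ± 0.10 in Smc3 depletion (adjusted p = 0.416, limma) and -0.12 ± 0.11 between Smc3 hairpins, so it did not follow the brightest. The third (1439663_at) went the same way as the brightest, with 46.3 and 34.3 under Smc3 shRNA1, then 33.7 and 24.6 under Smc3 shRNA2, against 24.9 and 18.9 in Empty Vector cells. It gave 0.88 ± 0.21 for Smc3 shRNA1 minus Empty Vector (adjusted p = 0.0352, limma). Smc3 depletion (0.65 ± 0.18, adjusted p = 0.0676) and the difference between Smc3 hairpins (0.47 ± 0.21, adjusted p = 0.209) did not pass on it. On the Wapal arrays the dim probe sets gave 0.40 ± 0.13 and 0.53 ± 0.12.

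With Wapal, the Ptch1 values of the hairpins lay on either side of Empty Vector. They were -0.20 ± 0.14 with Wapal shRNA1 and 0.48 ± 0.14 with Wapal shRNA2 against Empty Vector, and 0.14 ± 0.12 over both. Wapal shRNA1 minus Wapal shRNA2 was -0.68 ± 0.14 and did not pass (adjusted p = 0.0685, limma), although it passed when all 10 arrays shared 1 model (adjusted p = 0.0203) and when dim probe sets were left out (adjusted p = 0.0373). Within sides of the split these values were -0.01 with Wapal shRNA1 and 0.29 with Wapal shRNA2, so the gap between hairpins was smaller there. On the Wapal arrays Gli1 thus lay below Empty Vector with both hairpins, and Ptch1 overlapped Empty Vector with one and lay above it with the other.

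Smo, the membrane protein that Patched1 inhibits, read 93.2 and 107 with Wapal shRNA1, 65.9 and 81.7 with Wapal shRNA2, 138 and 147 with Smc3 shRNA1, 110 and 107 with Smc3 shRNA2, and 99.1 and 109 with Empty Vector on its brightest probe set (1427049_s_at). Smc3 shRNA1 was highest and Wapal shRNA2 lowest, both apart from Empty Vector, and the other 2 groups lay at the Empty Vector level. Smc3 shRNA1 was 0.45 ± 0.11 above Empty Vector (adjusted p = 0.0374, limma). The other tests did not pass. Smc3 depletion gave 0.25 ± 0.09 (adjusted p = 0.154), the Smc3 hairpins differed by 0.39 ± 0.11 (adjusted p = 0.0556) and the Wapal hairpins by 0.44 ± 0.14 (adjusted p = 0.173, all limma). The second probe set (1427048_at) spanned 46.9 to 71.5 and also had its 2 highest values, 69.7 and 71.5, with Smc3 shRNA1. There Smc3 shRNA1 minus Empty Vector was 0.35 ± 0.11 and did not pass (adjusted p = 0.0868, limma). The third (1442215_at) was dim at 6.14 to 8.54.

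Sufu, the cytoplasmic inhibitor that binds GLI proteins, read 45.8 and 73.9 with Wapal shRNA1, 58.8 and 52.4 with Wapal shRNA2, 99.3 and 87.5 with Smc3 shRNA1, 120 and 111 with Smc3 shRNA2, and 116 and 100 with Empty Vector on its brightest probe set (1450024_at). All 4 Wapal arrays were below the other 6. Wapal depletion minus Empty Vector was -0.93 ± 0.18, with -0.89 ± 0.21 for Wapal shRNA1 and -0.96 ± 0.21 for Wapal shRNA2. The 2 other Sufu probe sets were dim and showed no such fall, with 0.03 ± 0.14 (1431713_at, 38.99 to 57.3) and -0.06 ± 0.13 (1420848_at). In Smc3 depletion the brightest gave -0.06 ± 0.11 (adjusted p = 0.816, limma).

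Hhip, a membrane protein that binds and sequesters Hedgehog ligands and is another GLI target, was dim on all 4 of its probe sets. The brightest (1421426_at) read 14.3 and 12.999 with Wapal shRNA1, 15.6 and 18.7 with Wapal shRNA2, 17.9 and 16.1 with Smc3 shRNA1, 15.4 and 15.2 with Smc3 shRNA2, and 16.03 and 15.3 with Empty Vector. The groups overlapped or lay within 2 units of each other, and Smc3 depletion gave 0.04 ± 0.09 (adjusted p = 0.845, limma). The other probe sets (1455277_at, 1437933_at and 1438083_at) gave -0.26 ± 0.12, 0.27 ± 0.11 and 0.18 ± 0.10 in Smc3 depletion, none of which passed (the lowest adjusted p was 0.209, limma). In Wapal depletion, as a description, they gave -0.34 ± 0.14, 0.48 ± 0.09 and 0.01 ± 0.10. The probe sets of Hhip thus differed in sign, and a low brightness does not show that Hhip was absent.

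**Figure D2:**
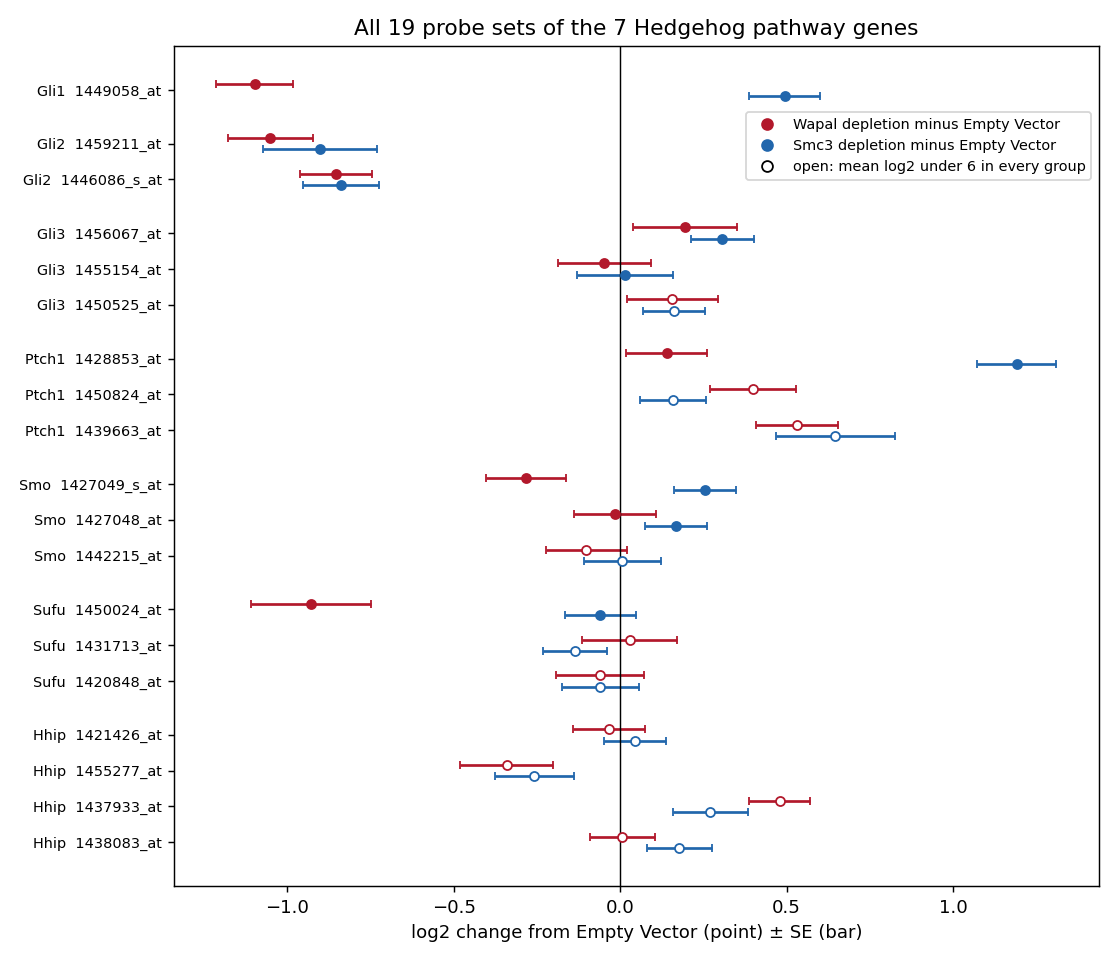
Log2 change from Empty Vector (points) with its SE (bars) for all 19 probe sets of the 7 Hedgehog pathway genes in Wapal depletion (red) and Smc3 depletion (blue); open points are dim probe sets. Both Gli2 probe sets lie near -1 in both depletions (-1.05 and -0.85 with Wapal, -0.90 and -0.84 with Smc3), Gli1 lies on opposite sides of 0 (-1.10 with Wapal, 0.49 with Smc3), and the dim Ptch1 probe sets differ in Smc3 depletion (0.16 and 0.65), and the dim Sufu probe sets lie near 0 with Wapal (0.03 and -0.06) where the brightest is at -0.93.

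In Wapal depletion 2.63% of all genes were called higher and 4.93% lower than with Empty Vector (adjusted p under 0.05, limma). At that threshold 0 members lay higher and 3 lower (Gli1, Gli2 and Sufu), a description only, since Gli1 and Gli2 were chosen for their fall in this comparison. In Smc3 depletion 2 members were higher (Gli1 and Ptch1) and 1 lower (Gli2), beside 6.08% and 3.94% of all genes. With Smc3 shRNA2 alone against Empty Vector, neither Gli1 nor Ptch1 passed. The Empty Vector arrays of the Smc3 comparison also took part in the choice of Gli1 and Gli2. The median change of the members was 0.25 in Smc3 depletion, against 0.01 over all genes. Between the Wapal hairpins 0 members passed, beside 0.434% of genes called higher and 1.02% called lower with Wapal shRNA1. At an unadjusted p under 0.05 (limma) there were 5 members, and 7520 of 45037 probe sets over the array. Between the Smc3 hairpins 2 were higher with Smc3 shRNA1 (Gli1 and Ptch1) and 1 lower (Gli3), beside 7.87% and 4.63% of all genes.

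**Figure D3:**
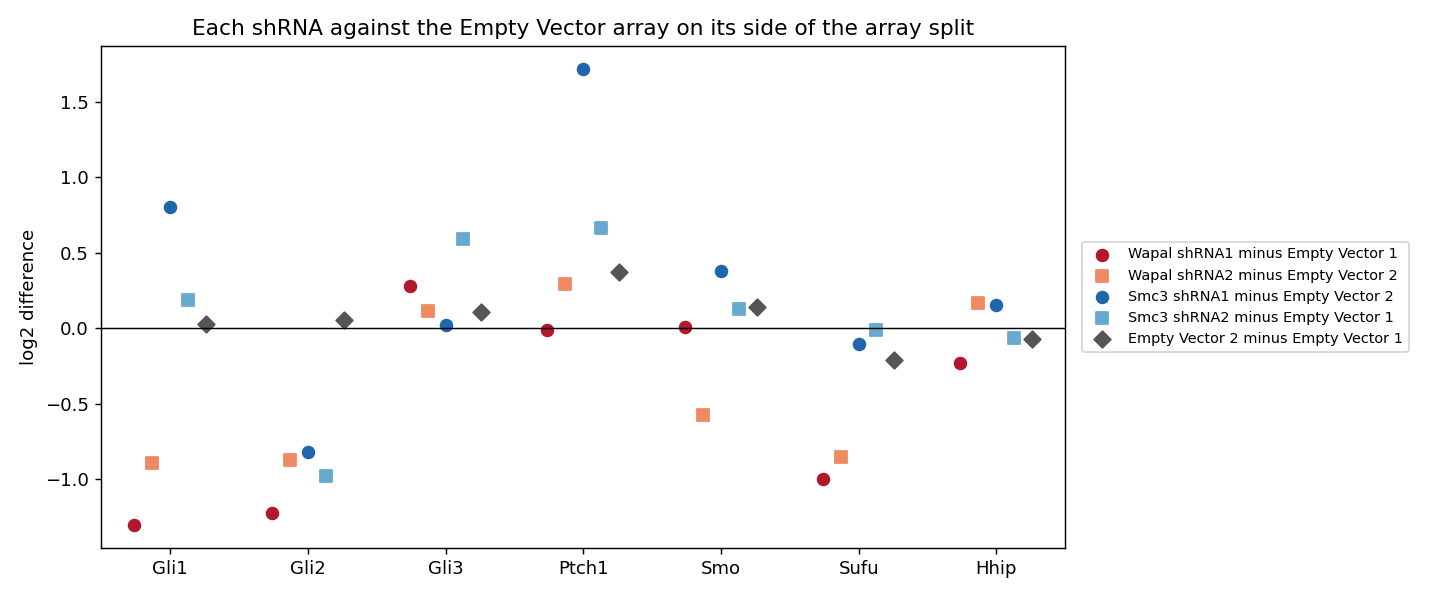
Log2 difference of each shRNA group from the Empty Vector array on its own side of the array split (circles and squares) and between the 2 Empty Vector arrays (diamonds), for the brightest probe set of each member. The 4 Gli2 differences are all between -1.23 and -0.82 and the Gli1 differences change sign between Wapal and Smc3 shRNAs, while Ptch1 reaches 1.72 with Smc3 shRNA1 against 0.37 between the Empty Vector arrays.

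Set directly against Smc3 depletion, Wapal depletion had lower Gli1 (-1.59 ± 0.10), Ptch1 (-1.05 ± 0.09), Sufu (-0.87 ± 0.13) and Smo (-0.54 ± 0.09). Gli2 (-0.15 ± 0.14), Gli3 (-0.11 ± 0.12) and Hhip (-0.08 ± 0.08) had smaller differences. Members were chosen on Wapal arrays, so nothing is read from their counts here, 0 members higher and 4 lower beside 7.66% of all genes called higher and 14.8% called lower. The Gli1 groups did not overlap, with 21.2 to 32.8 on the Wapal arrays against 60.7 to 109 on the Smc3 arrays. For Ptch1 the sets of arrays did overlap, since both Wapal shRNA2 arrays (841 and 811) lay between the Smc3 shRNA2 arrays (858 and 793).

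The other genes of the pathway were taken from 5 lists by role, with 62 of 65 genes measured. Of these, 1 was higher and 4 were lower in Wapal depletion, and 3 were higher and 6 lower in Smc3 depletion (adjusted p under 0.05, limma). Those counts are 1.61% higher and 6.45% lower in Wapal depletion, beside 2.63% and 4.93% of all genes, and 4.84% higher and 9.68% lower in Smc3 depletion, beside 6.08% and 3.94%. Apart from the genes lower in Smc3 depletion, these shares were near or under those of all genes. Their median change was -0.02 in Wapal depletion and 0.03 in Smc3 depletion, against 0.01 over all genes in each.

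The ligands were not detected above the dim level. Shh read 10.9 to 14.7, Ihh 13.5 to 23.2 and Dhh 24.4 to 35.1 over the 10 arrays. None of the 9 genes for ligands and their release passed in Wapal depletion (0 also at an unadjusted p under 0.05). In Smc3 depletion 1 passed, Scube3, a secreted protein that helps release ligand (0.48 ± 0.12, adjusted p = 0.0430, limma). It read 53.3 and 66.9 under Smc3 shRNA1, then 79.0 and 69.0 under Smc3 shRNA2, against 47.7 and 47.2 in Empty Vector cells. The Scube3 call was lost in most fits that left out 1 array. It was also lost in 1 model for all arrays (adjusted p = 0.115) and with the side of the split as a term (adjusted p = 0.067, limma).

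Of 6 co-receptors and membrane regulators measured, Gas1, which binds ligand together with Patched1, was higher in Wapal depletion. It read 113 and 133 under Wapal shRNA1, then 128 and 135 under Wapal shRNA2, against 74.4 and 83.6 in Empty Vector cells (0.69 ± 0.11, adjusted p = 0.0143, limma), with no overlap. In Smc3 depletion Cdon, another ligand co-receptor, was higher. It read 170 and 170 under Smc3 shRNA1, then 153 and 176 under Smc3 shRNA2, against 118 and 131 in Empty Vector cells (0.43 ± 0.10, adjusted p = 0.0390, limma). The Cdon call was lost in most fits that left out 1 array, and the Gas1 call in some of them. Neither passed on the second probe set. That probe set gave 0.29 for Gas1 in Wapal depletion (adjusted p = 0.251) and 0.14 for Cdon in Smc3 depletion (adjusted p = 0.468, limma).

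None of the 18 measured cytoplasmic transducers and GLI-processing genes passed in either depletion (4 in Wapal depletion and 3 in Smc3 depletion had an unadjusted p under 0.05, limma). Over the array, 10468 of 45037 probe sets in Wapal depletion and 9591 in Smc3 depletion had an unadjusted p under 0.05. Among 8 measured cilium genes, Ift122, part of the transport complex that carries proteins back along the cilium, was lower in Wapal depletion. It read 41.8 and 33.4 under Wapal shRNA1, then 65.8 and 56.9 under Wapal shRNA2, against 69.2 and 78.8 in Empty Vector cells (-0.63 ± 0.13, adjusted p = 0.0304, limma). Every Wapal array was below both Empty Vector arrays, and the call was lost in 5 of 6 fits without 1 array, with adjusted p up to 0.0951. The second Ift122 probe set gave -0.27 in Wapal depletion and did not pass (adjusted p = 0.193, limma). No cilium gene passed in Smc3 depletion (1 had an unadjusted p under 0.05).

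The 21 listed GLI target genes held most of the calls, with 0 higher and 3 lower in Wapal depletion and 1 higher and 6 lower in Smc3 depletion. Over all genes 2.63% were called higher and 4.93% lower in Wapal depletion, and 6.08% and 3.94% in Smc3 depletion. The target genes have many other regulators and the list is taken from other tissues. Ccnd2, cyclin D2, read 40.4 and 55.9 with Wapal shRNA1, 115 and 129 with Wapal shRNA2, 88.0 and 82.5 with Smc3 shRNA1, 53.6 and 55.9 with Smc3 shRNA2, and 179 and 174 with Empty Vector. All 8 depleted arrays were below Empty Vector, with -1.21 ± 0.14 in Wapal depletion (adjusted p = 0.00609) and -1.37 ± 0.09 in Smc3 depletion (adjusted p = 0.000184, limma). Between the Wapal hairpins Ccnd2 was the only wider pathway gene that passed (-1.36 ± 0.16, adjusted p = 0.0173, limma), and it was lower with the hairpin that left more Wapl.

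Ccnd1, cyclin D1, read 556 and 592 with Wapal shRNA1, 836 and 810 with Wapal shRNA2, 313 and 318 with Smc3 shRNA1, 282 and 261 with Smc3 shRNA2, and 917 and 936 with Empty Vector. The Smc3 arrays were the 4 lowest and the Wapal arrays lay between them and Empty Vector. The change was -1.66 ± 0.09 in Smc3 depletion (adjusted p = 9.51e-05, limma) and -0.43 ± 0.09 in Wapal depletion (adjusted p = 0.0344, limma). The Wapal call was lost whichever of the 6 arrays was left out, with adjusted p from 0.0819 to 0.106. The second Ccnd1 probe set gave -0.29 in Wapal depletion and did not pass (adjusted p = 0.127, limma). Ntn1, which encodes the guidance molecule netrin 1, gave -1.24 ± 0.15 in Wapal depletion (adjusted p = 0.00730) and -0.81 ± 0.12 in Smc3 depletion (adjusted p = 0.00606, limma). Its second probe set gave 0.28 and 0.13 with no pass, so the fall of Ntn1 was seen on 1 of them.

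The other target genes that passed in Smc3 depletion were Fst, an activin antagonist (-1.18 ± 0.11, adjusted p = 0.000966), Sfrp1, a Wnt antagonist (-0.86 ± 0.11, adjusted p = 0.00325), Cdk6, a cell cycle kinase (-0.66 ± 0.13, adjusted p = 0.0200), and Mycn, a growth regulator that was higher (0.42 ± 0.10, adjusted p = 0.0374, all limma). Fst was dim in every group. Mycn did not pass on its second probe set (0.17, adjusted p = 0.328) or with the side of the split as a term (adjusted p = 0.0754, limma). The Mycn and Cdk6 calls were lost in most fits that left out 1 array. Thus 7 of 21 targets passed in Smc3 depletion, 6 of them lower, beside 6.08% of all genes called higher and 3.94% lower. Ptch1 and Gli1 were higher on the same arrays, each with a pass for Smc3 shRNA1 and none for Smc3 shRNA2. Gli1 did not pass with the side of the split as a term (adjusted p = 0.102, limma). The second Ptch1 probe set gave 0.16 with no pass.

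**Figure D4:**
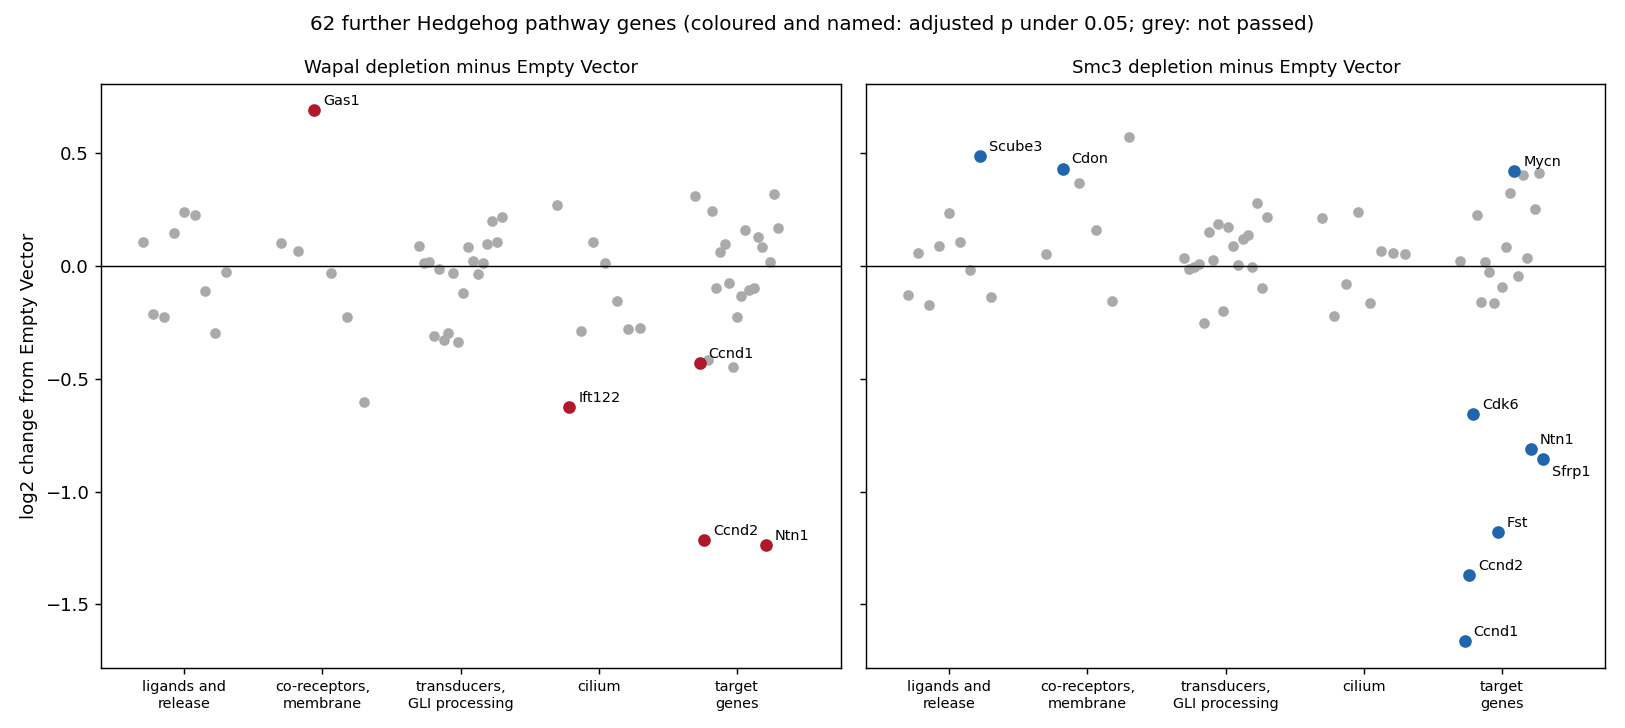
Log2 change from Empty Vector of 62 further Hedgehog pathway genes by role, in Wapal depletion (left) and Smc3 depletion (right); each point is the brightest probe set of a gene, and coloured, named points have an adjusted p under 0.05. Most named points are target genes below 0, and none is a transducer.

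Markers of other cell types moved on some of the arrays on which members moved. Pdgfrb, a growth factor receptor in the fibroblast list, read 113 and 104 under Smc3 shRNA1, then 46.9 and 46.0 under Smc3 shRNA2, against 40.4 and 56.4 in Empty Vector cells. It was higher with Smc3 shRNA1 than with Smc3 shRNA2 (1.22 ± 0.16, adjusted p = 0.00336, limma), as was Pdgfra (0.67 ± 0.13, adjusted p = 0.0145). Pdgfra is in the primitive endoderm list too and was dim. The other 8 fibroblast markers did not pass between the Smc3 hairpins. On the Wapal arrays Pdgfrb read 22.3 and 21.3 under shRNA1 and 39.5 and 41.8 under shRNA2, a change from Empty Vector of -0.68 ± 0.14 (adjusted p = 0.0299, limma). In that list Thy1 was also lower (-0.65 ± 0.11, adjusted p = 0.0191) and Dcn, which was dim, higher (0.48 ± 0.10, adjusted p = 0.0384) in Wapal depletion. In Smc3 depletion Thy1 was lower (-0.92 ± 0.10, adjusted p = 0.00173), and Dcn (0.52 ± 0.10, adjusted p = 0.0147), Pdgfra (0.51 ± 0.11, adjusted p = 0.0282) and Pdgfrb (0.57 ± 0.14, adjusted p = 0.0389) were higher. Klf4 (1.11 ± 0.12, adjusted p = 0.00226) and Nanog (0.48 ± 0.10, adjusted p = 0.0226, limma), both ESC markers, were also higher with Smc3 shRNA1 than with Smc3 shRNA2. The neural ectoderm markers summed to 2324 to 2337 with Smc3 shRNA1, 1833 to 1848 with Smc3 shRNA2 and 850 to 990 with Empty Vector, through Otx2 (1.37 ± 0.10 in Smc3 depletion, adjusted p = 0.000247, limma), with 5 of the 8 markers dim. Against Empty Vector, 4 of 10 ESC markers were lower in Smc3 depletion, Nanog (-0.71 ± 0.09, adjusted p = 0.00297), Klf4 (-0.79 ± 0.11, adjusted p = 0.00432), Esrrb (-0.77 ± 0.13, adjusted p = 0.00913) and Zfp42 (-0.44 ± 0.10, adjusted p = 0.0282, all limma). In Wapal depletion Klf4 (-0.76 ± 0.11, adjusted p = 0.0104) and Esrrb (-0.66 ± 0.11, adjusted p = 0.0175) were lower. The part of these cells or states in the member values was not tested, and in these bulk samples fewer cells that express a gene and less RNA per cell cannot be told apart.

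The genes whose levels over the 10 arrays were most like Gli1 were B3glct (Pearson r = 0.985), Ptprv (0.982), Rsu1 (0.979), Smox (0.966) and Rnf26 (0.960), out of 1899 genes that were above the dim level on average and varied over the arrays. B3glct, for example, read 118 and 126 with Wapal shRNA1, 147 and 148 with Wapal shRNA2, 238 and 252 with Smc3 shRNA1, 210 and 206 with Smc3 shRNA2, and 184 and 206 with Empty Vector. The genes most like Gli2 were Rbm14 (r = 0.949), Nav1 (0.948), Sall1 (0.940), Frmd4a (0.918) and Ly75 (0.915), out of 1898. Sall1, which read 322 and 356 with Empty Vector, lay between 154 and 251 on the 8 depleted arrays. These likenesses are descriptions over 10 arrays that share groups, with no p.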

How the data were processed

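RNA, extracted with Trizol, was read on Affymetrix mouse genome expression arrays, 2 per group. The deposited intensities are linear RMA values, which the authors made from the scanner files by background correction, normalization and summary per probe set. The RMA version is not given in the sources used here. They were put on a log2 scale with no offset. 64 control probe sets were left out of 45101. Of the 45037 tested, 34945 had 1 gene symbol in the platform annotation, 932 had several and 9160 had none.

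limma 3.58.1 in R 4.3.3 was fitted with 1 mean per group, on 6 arrays for comparisons with Empty Vector or between hairpins and on all 10 for Wapal minus Smc3, with Benjamini-Hochberg adjustment over all probe sets and two-sided tests (threshold 0.05). Tables were made with Python 3.11.15 and pandas 2.3.3. The fit was tested on simulated data with known changes. No counts lie behind arrays, so their number limits the precision. Replicates are termed biological in the labels, without word of separate infections. A p-value here therefore reflects the spread among these samples alone, and that spread may be technical. Groups came from the sample labels. In a table of the study 1 array each of Wapal shRNA1 and Wapal shRNA2 are exchanged, but the Wapl level goes with the sample labels.

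The members and lists were chosen with earlier results of these data known. All member probe sets are reported, and pathway list genes that passed are named (up to 8 a direction) and the 5 genes most like Gli1 and Gli2 (mean log2 of at least 6, SD of at least 0.3). Listed genes that no probe set matched by a single symbol were not analysed here. Alternatives were an offset of 16, quantile normalization, a filter on dim probe sets, 1 model for all arrays, trended and robust variance, replicate number as a block, the side of the array split as a term, an equal-variance t-test, the second probe set and leaving out each array. Except between hairpins, the fit with the side and the t-test took both hairpins of a target as 1 group.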

Additional observations from a re-analysis of the deposited data

Results flagged for a closer look

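Differences between hairpins of 1 target gene, or between the depletions, were followed up as results in which groups under the same comparison differ. Between the Smc3 hairpins, Smc3 shRNA1 minus Smc3 shRNA2 was 0.65 for Gli1, 1.43 for Ptch1 and -0.46 for Gli3. On the same comparison Ccnd2 (0.64), Sfrp1 (0.61), Rab23 (0.60), Rab34 (0.54) and Mycn (0.50) were higher and Ntn1 (-0.77) was lower. Those are 8.06% higher and 1.61% lower of the 62 wider pathway genes, near or under the 7.87% and 4.63% of all genes. The second probe set of Ntn1 went the other way (0.29). Of the 10 fibroblast markers, Pdgfra and Pdgfrb were also higher with Smc3 shRNA1 (0.67 and 1.22), and the other 8 did not pass. The ESC markers Klf4 and Nanog and 1 neural ectoderm marker were higher there too. The part of such cells or states in these differences was not tested. Between the Wapal hairpins, Ccnd2 was the only pathway gene past the threshold (-1.36).

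For Gli1 every Wapal array lay below Empty Vector and every Smc3 array above it, which is Wapal minus Smc3 depletion of -1.59. It is given as a description with no test, since Wapal arrays led to the choice of Gli1. In the wider lists, Wapal minus Smc3 depletion was lower for Lrp2 (-1.17), a large endocytic receptor, Scube3 (-0.78), Mycn (-0.52), Evc (-0.48), Ntn1 (-0.42), Ift122 (-0.40), Cdon (-0.36), Rab23 (-0.34), Evc2 (-0.33), Tulp3 (-0.33), Dyrk2 (-0.32) and Fbxw11 (-0.22). It was higher for Ccnd1 (1.23), Sfrp1 (1.03), Fst (0.73) and Gas1 (0.32). These calls are 19.4% lower and 6.45% higher of the 62 wider pathway genes, beside 14.8% and 7.66% of all genes (adjusted p under 0.05, limma). On their second probe sets Ntn1, Cdon, Evc, Dyrk2 and Tulp3 went the other way, and there Dyrk2 and Tulp3 passed as higher.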

How the results depend on the processing

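With 2 arrays per group, a fit without 1 array assumes that the lone array of that group varies like the others. Over such fits, Gli1 in Smc3 depletion was 0.42 to 0.57, Gli2 -1.07 to -0.73, and Gli1 between the Smc3 hairpins 0.50 to 0.79 (call lost without Smc3 shRNA1 replicate 1, Smc3 shRNA1 replicate 2 or Smc3 shRNA2 replicate 2). Wider pathway genes numbered 0 to 1 higher and 2 to 3 lower in Wapal depletion and 0 to 4 higher and 5 to 6 lower in Smc3 depletion. Over the array, calls numbered 163 to 887 higher and 326 to 1394 lower in Wapal depletion, and 893 to 2134 higher and 641 to 2065 lower in Smc3 depletion. With an offset of 16, Gli1 was -0.78 in Wapal depletion and -1.19 in Wapal minus Smc3. With the side of the array split as a term and 1 mean for both hairpins, Gli1 in Smc3 depletion stayed at 0.49 (adjusted p = 0.102, limma). That fit cannot separate the split from a difference between hairpins. An equal-variance t-test left every effect size the same but passed none of Gli1 (0.49, adjusted p = 0.622), Gli2 (-0.90, 0.292) and Ptch1 (1.19, 0.572) in Smc3 depletion, or Gli1 (0.65, 0.274) and Ptch1 (1.43, 0.168) between Smc3 hairpins. In a depletion it took both hairpins as 1 group, so differences between them counted as spread. Smc3 itself (-3.00) did not pass it in Smc3 depletion, so a failure there cannot decide on a gene. By that test 0 wider pathway genes were higher or lower in either depletion, and over the array 0 probe sets were higher and 3 lower in Wapal depletion and 0 in either direction in Smc3 depletion (7056 and 5485 had an unadjusted p under 0.05), against 937, 1724, 1900 and 1534 by limma.

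With the second brightest probe set, Ptch1 was 0.16 in Smc3 depletion (adjusted p = 0.416) and reversed to -0.12 between Smc3 hairpins, Sufu reversed to 0.028 in Wapal depletion, and Ntn1 to 0.28 in Wapal depletion, 0.13 in Smc3 depletion and 0.29 between Smc3 hairpins. In Wapal minus Smc3 the reversed values were 0.24 for Ptch1, 0.16 for Sufu, 0.15 for Ntn1, 0.066 for Cdon, 0.30 for Dyrk2, 0.15 for Evc and 0.42 for Tulp3. Of the wider genes among them, Dyrk2 (adjusted p = 0.04395) and Tulp3 (adjusted p = 0.00457, limma) passed in that opposite direction. Wider pathway genes lower in Wapal depletion were 7 instead of 4 without dim probe sets, in 1 model for all arrays and with trended variance. Those higher in Smc3 depletion were 6 instead of 3 with the offset, without dim probe sets and with trended variance, and 1 with the side term or the replicate block. Replicate numbers did not pair the arrays (correlations of same-numbered deviations -0.16 to 0.06). With the replicate number as a block Gli3 between Smc3 hairpins kept -0.46 with adjusted p = 0.0548, and no other member's call changed. Of the wider genes, the block ended the calls of Ccnd1 in Wapal depletion (adjusted p = 0.0526), Mycn (0.0570) and Scube3 (0.0576) in Smc3 depletion, Rab34 between Smc3 hairpins (0.0554), and Fbxw11 (0.0635) and Ntn1 (0.0506) in Wapal minus Smc3. Wider genes lower between Wapal hairpins were 1, but 3 with the offset, 4 in 1 model, 5 without dim probe sets and 6 with trended variance. Quantile normalization gave 843 probe sets higher and 982 lower in Wapal depletion. The cause of these changes was not tested.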
